A study of Homo sapiens with 8 samples.

Results

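Messenger RNA of 10 genes of the BCL2 family, which sets whether a cell enters apoptosis through its mitochondria, was described in 2 human pancreatic cancer cell lines with and without siRNA against HOXB7. The genes were BAX, BAK1, BAD, BID, BCL2L11, PMAIP1 and BBC3, whose products promote apoptosis, and BCL2, BCL2L1 and MCL1, whose products oppose it. They were chosen by name, and each probe outside the control spots that the array annotation gives one of these names was kept. This gave 15 probes of 34127 and 10 genes of 27363.

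RNA was hybridised to one-color Agilent arrays, where each spot carries copies of a 60-base probe and its fluorescence measures one transcript. MIA PaCa-2 comes from a primary pancreatic carcinoma and Capan-1 from a liver metastasis of one. In each line, 2 arrays held cells at 48 h after transfection of siRNA against the homeobox transcription factor HOXB7 at 10 nM, and 2 held parental cells, which makes 8 arrays in 4 groups. No array of cells with a scrambled siRNA was analysed here and the labels name no duplex, so loss of HOXB7 cannot be told apart from transfection itself.

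As background, proteins of this family meet at the outer membrane of mitochondria. BAX and BAK1 form pores there that release cytochrome c and lead to caspase activation. BCL2, BCL-XL (from BCL2L1) and MCL1 bind and restrain them, and the BH3-only proteins BID, BIM (from BCL2L11), PUMA (from BBC3), NOXA (from PMAIP1) and BAD either activate the pore formers or occupy the restraining proteins. Many of these proteins are also set by splicing, cleavage, phosphorylation and turnover, which an mRNA array does not read.

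All levels below are log2 intensities after subtraction of the 75th percentile of the gene probes on the same array, so 0 is the level of that percentile and 1 unit is a doubling of signal. A level can be compared between arrays for one probe, but not between probes. The Feature Extraction software called 69.2% to 74.3% of the spots of an array well above background, and replicate arrays correlated with a Pearson r of 0.995 to 0.997 across probes, which are not independent replicates. Each cell line had its own slide, with the siRNA samples at the first positions and the parental samples at the last, so slide and cell line, and position and treatment, cannot be told apart. The labels do not say that replicates were separate cultures, so every p measures only the spread between these arrays, and an exact permutation test of 2 arrays against 2 cannot give a p under 0.333. Bulk RNA scaled within each array cannot show whether the RNA of each cell changed or the number of cells did. After siRNA in MIA PaCa-2, HOXB7 itself stood at -7.76 and -7.78, not above background, against -4.82 and -4.09 on the parental arrays (at least 2.45-fold lower, limma adjusted p = 0.0173). In Capan-1 it stood at -5.26 and -4.80 against -2.48 and -2.34 (log2 fold change -2.62, limma adjusted p = 0.121). Of 7 epithelial markers, Capan-1 expressed all 7 above background and MIA PaCa-2 5 of 7, without EPCAM and CDH1. Markers of other cells were also above background in each group: 3 of 3 for leukocytes, 2 of 3 for endothelium, and for fibroblasts 3 of 4 after siRNA in either line against 2 of 4 in parental MIA PaCa-2 and 1 of 4 in parental Capan-1, with PDGFRA above background nowhere. The fibroblast counts differ through genes above background on 1 of 2 parental arrays. These were COL1A1 in MIA PaCa-2 (mean -5.27 after siRNA against -5.21) and, in Capan-1, COL1A2 (-5.74 against -5.88) and DCN (-4.89 against -5.36). The part of the markers of other cells in the results was not tested.

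Probe positions matter for BCL2, because its probes lie 194678 bases apart on the minus strand of chromosome 18 (hg18). The brighter one, printed here because 1 of its spots later sets the Capan-1 value, lies at chr18:59136381-59136440 in the protein-coding part of BCL2 and was designed from NM_000657.

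BCL2 brighter probe: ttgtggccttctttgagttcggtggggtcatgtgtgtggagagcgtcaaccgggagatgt

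The fainter one, at chr18:58941703-58941762 and listed under NM_000633, is on 10 spots per array, as are the first BAX probe and the BCL2L1 probe. BCL2L11 had 3 probes, at chr2:111642363-111642422, chr2:111595176-111595235 and chr2:111598336-111598395 from brightest to faintest, and BAX and BID had 2 each. The other members had 1 probe. All 15 probes were tested in MIA PaCa-2, 14 in Capan-1, where the fainter BCL2 probe was above background on 0 of 4 arrays.

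After HOXB7 siRNA in MIA PaCa-2, differences of members were small and none passed the test. The log2 fold changes of the brightest probes, siRNA over parental, ran from -0.20 for BAD to 0.16 for BAX. None of the 10 genes passed the limma threshold (Benjamini-Hochberg adjusted p under 0.05 over all probes tested), where 2.29% of all genes did. That share is 441 genes and depends on the arrays pooled in the fit, being 0 genes with each line fitted alone and 3 without any 1 Capan-1 array. At an unadjusted p under 0.05 the count was also 0, against 23.4% of all genes. For the 13 probes of members other than BCL2, the 95% confidence intervals lay between -0.55 and 0.55.

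BAX, a pore former, stood at 4.03 and 3.89 in MIA PaCa-2 cells given siRNA and at 3.72 and 3.87 in parental cells. The siRNA arrays were just above both parental arrays, with a log2 fold change of 0.16 (SE 0.095, limma adjusted p = 0.387). It became -0.052 without scaling between arrays, where the median of all genes was -0.20. The fainter BAX probe, 450 bases away, gave 0.019 (adjusted p = 0.963). BAK1, the other pore former, stood at 2.09 and 2.28 against 2.38 and 2.12, so its groups overlapped (log2 fold change -0.067, limma adjusted p = 0.801).

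Among the BH3-only genes, BAD had the lowest value in MIA PaCa-2. Its levels were 1.60 and 1.72 after siRNA and 1.88 and 1.84 in parental cells, a log2 fold change of -0.20 (SE 0.099, limma adjusted p = 0.316) with groups that did not overlap. BBC3, which encodes PUMA, stood at 2.17 and 2.25 against 1.94 and 2.21, and the groups overlapped (log2 fold change 0.14, limma adjusted p = 0.529). PMAIP1, which encodes NOXA, stood at 0.75 and 0.56 against 0.51 and 0.65, again overlapping (0.076, limma adjusted p = 0.741). BID, which caspase-8 cleaves to its active form, gave 0.048 and 0.013 on its probes. The probes of BCL2L11 gave 0.034, 0.13 and 0.24, with adjusted p of 0.346 to 0.861. Without scaling between arrays the brightest probes of BBC3, PMAIP1, BID and BCL2L11 were all below 0, at -0.080, -0.14, -0.17 and -0.18, where the median of all genes was itself -0.20; relative to that median they were above 0.

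The anti-apoptotic genes of MIA PaCa-2 differed as little. MCL1, a short-lived protein that binds NOXA and BIM, stood at 1.51 and 1.42 after siRNA and at 1.66 and 1.52 in parental cells (log2 fold change -0.12, SE 0.11, limma adjusted p = 0.577). BCL2L1 stood at -1.02 and -0.86 against -0.57 and -1.05, where parental replicate 1 was the highest of the 4 arrays (-0.13, limma adjusted p = 0.714), and the value was 0.10 without that array. BCL2 stood at -2.37 and -2.54 against -2.58 and -2.53 on its brighter probe, which overlapped, and at -4.32 and -4.35 against -4.05 and -4.31 on its fainter probe, which did not. Its log2 fold changes were therefore of opposite sign, 0.10 and -0.15 (limma adjusted p = 0.971 and 0.627). The first was below 0 without scaling (-0.12) and with spike-in scaling (-0.032), where the median of all genes was -0.20 and -0.11. The SE of the first, 1.00, pools all 4 groups and so includes the Capan-1 siRNA arrays at -1.83 and -5.28.

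**Figure D1:**
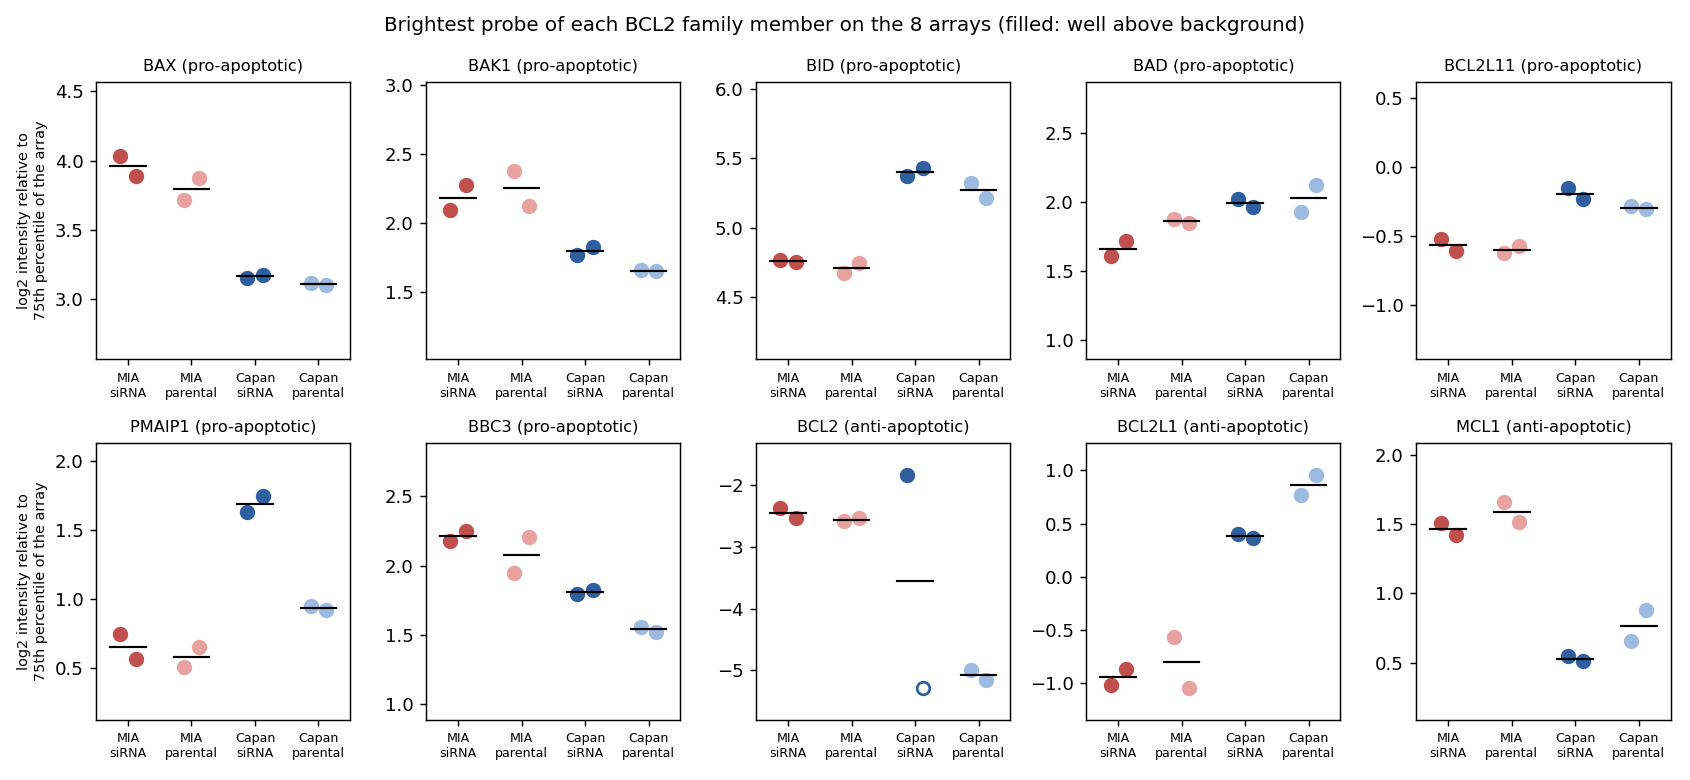
Level of the brightest probe of each member on the 8 arrays, as log2 intensity relative to the 75th percentile of the array (vertical axis, each panel with its own range), by group along the horizontal axis. Points are arrays, filled where the probe was well above background, and bars are the means of 2; PMAIP1 of Capan-1 stood at 1.63 and 1.75 after siRNA against 0.95 and 0.92, and 1 Capan-1 siRNA array of BCL2 stood apart at -1.83.

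In Capan-1, PMAIP1 and BBC3 were higher and BCL2L1 and MCL1 lower on both siRNA arrays than on both parental arrays, and none of them passed the adjusted threshold. The count of members called was 0 of 10, where 0.00528% of all genes were called in this line, a single gene. At an unadjusted p under 0.05 there were 3 members, PMAIP1, BBC3 and BCL2L1, against 14.5% of all genes. By the brightest probe, 8 of 10 members had groups that did not overlap, against 54.2% of all genes, with 6 higher after siRNA (27.3% of all genes) and 2 lower (26.9%). In MIA PaCa-2 this count was 4 of 10, against 52.0%.

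PMAIP1 had the clearest difference in Capan-1. It stood at 1.63 and 1.75 on the siRNA arrays and at 0.95 and 0.92 on the parental ones, and the gap between the groups was wider than the spread within either. The log2 fold change was 0.76 (SE 0.11, 95% confidence interval 0.50 to 1.01, limma adjusted p = 0.142), and 0.989% of the genes tested had a higher one. Over all alternatives it lay between 0.36 and 0.82, above 0 in each, and its adjusted p lay between 0.0031 and 0.694. It passed the threshold with the normexp background correction and when the prior spread followed intensity (an intensity trend). In these settings 77 and 50 of 18938 genes passed, against 1 in the main fit. The PMAIP1 probe was the single one of 15 member probes outside an interval holding 99% of the log2 ratios between the parental Capan-1 arrays. It lay outside on both siRNA arrays, each set against the parental array of the same number. The share of all probes outside this interval was not counted, so whether 1 of 15 is unusual cannot be told. A gene with 1 probe cannot be called under the criterion of 2 probes or more that goes with this interval. Among the 3 Capan-1 members and 4 MIA PaCa-2 members that met that criterion, 0 were called, where it called 0.272% and 0.135% of eligible genes.

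BBC3 stood at 1.79 and 1.82 after siRNA and at 1.56 and 1.52 in parental Capan-1 cells. Its groups did not overlap, and the log2 fold change of 0.27 (SE 0.11, limma adjusted p = 0.393) turned to -0.13 when arrays were scaled to the spike-in probes, under which the median of all genes was -0.40. BCL2L1 stood at 0.40 and 0.37 against 0.77 and 0.96, so both siRNA arrays were lower (log2 fold change -0.48, SE 0.17, limma adjusted p = 0.359). All 10 spots of its probe were above background on each array. MCL1 stood at 0.54 and 0.51 against 0.65 and 0.88, also without overlap (-0.24, SE 0.11, limma adjusted p = 0.438). BCL2L1 and MCL1 were below 0 in Capan-1 under every alternative tried, -0.88 to -0.39 and -0.63 to -0.12, and neither passed the threshold in any. The lowest values came with spike-in scaling. Relative to the median of all genes they were -0.48 and -0.24 there, as in the main setting, since this scaling shifts each array by a constant.

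The remaining pro-apoptotic members of Capan-1 gave small values. BAK1 stood at 1.77 and 1.83 against 1.66 and 1.66 (log2 fold change 0.14, limma adjusted p = 0.648), BID at 5.37 and 5.43 against 5.32 and 5.21 (0.13, limma adjusted p = 0.548) and BAX at 3.15 and 3.17 against 3.12 and 3.10 (0.054, limma adjusted p = 0.854). The groups of these 3 genes did not overlap. All 3 were below 0 without scaling and with spike-in scaling, where the median of all genes was -0.16 and -0.40, and all 3 were above that median. The fainter BAX probe went the other way, with -0.21 (limma adjusted p = 0.588). BAD stood at 2.02 and 1.97 against 1.93 and 2.12, with overlap (-0.033, limma adjusted p = 0.924). The BCL2L11 probes gave 0.10, 0.060 and -0.0088.

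The value of BCL2 in Capan-1 rested on 1 array. The brighter probe, the sequence printed above, stood at -1.83 on siRNA replicate 1 and at -5.28 on siRNA replicate 2, which was not above background, against -4.99 and -5.16 in parental cells. The log2 fold change of 1.51 (SE 1.00, limma adjusted p = 0.569) was -0.21 without siRNA replicate 1 and 3.24 without siRNA replicate 2, where it passed the threshold. On siRNA replicate 1 the fainter BCL2 probe stood at -7.51, and 1 of its 10 spots was above background. The brighter probe lies on a single spot, so that no second reading of it exists on that array.

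**Figure D2:**
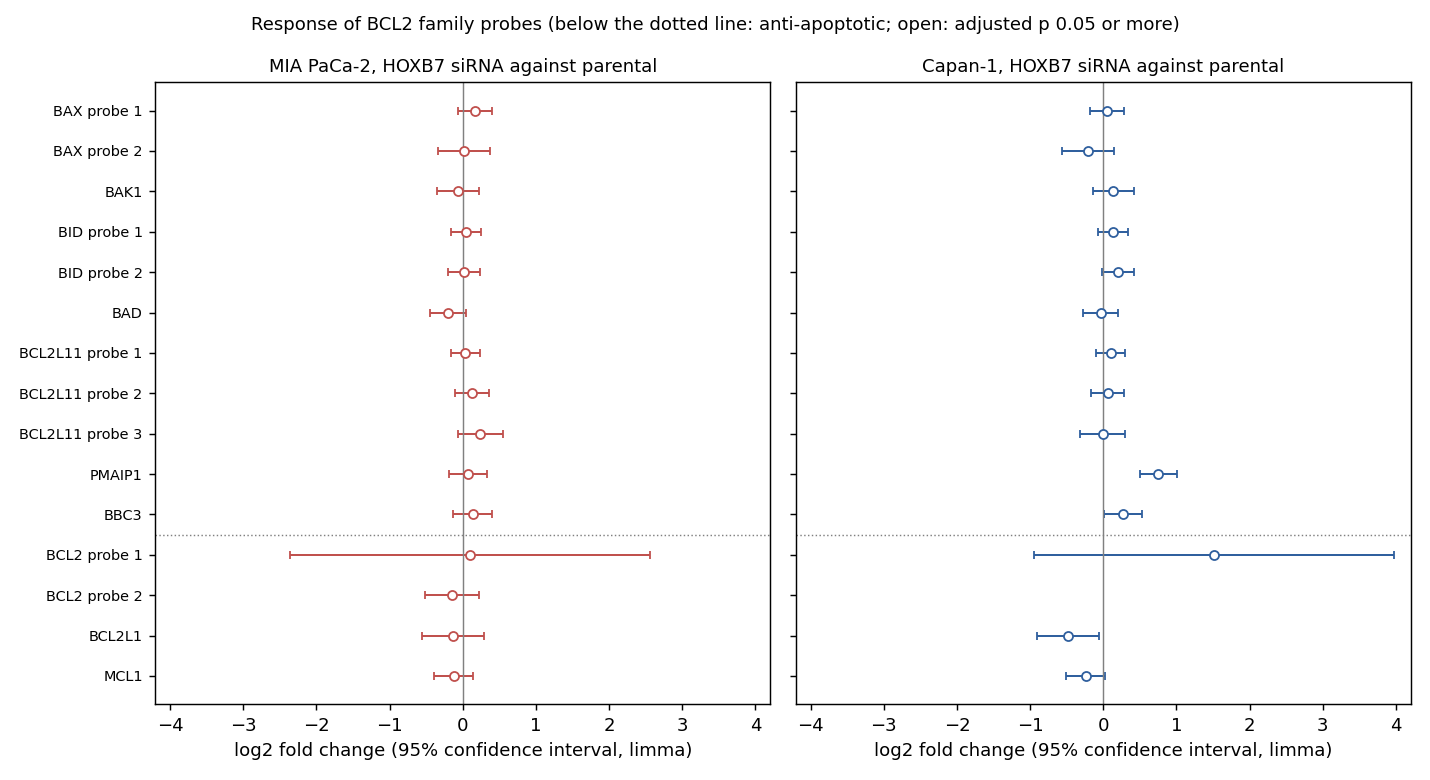
Log2 fold change, HOXB7 siRNA over parental, for the 15 member probes in MIA PaCa-2 (left) and Capan-1 (right), with 95% confidence intervals from limma; probe 1 is the brightest of a gene. Open points have an adjusted p of 0.05 or more, which is all of them, and the interval of PMAIP1 in Capan-1 ran from 0.50 to 1.01.

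By role, the median log2 fold change in Capan-1 was 0.13 over the 7 pro-apoptotic members, with 6 above 0, and -0.24 over the 3 anti-apoptotic members, with 2 below 0. The median of all 18916 genes was 0.0016. In MIA PaCa-2 the medians were 0.048 and -0.12, with 5 of 7 above 0 and 2 of 3 below 0, against 0.019 for all genes. The difference of the role medians, in which a constant shift of an array cancels, was 0.37 in Capan-1 (SD 0.14 over pairs of one siRNA and one parental array, which share arrays) and 0.17 in MIA PaCa-2 (SD 0.16). Leaving out parental replicate 1 turned the MIA PaCa-2 value to -0.068, and leaving out parental replicate 2 lowered the Capan-1 value to 0.22. Counted against the median of all genes, 6 of 7 pro-apoptotic members of Capan-1 were higher in the main setting and with quantile scaling, and 4 of 7 with normexp. No scaling and spike-in scaling only shift each array by a constant, so they cannot test this count. Counted against 0, 2 of 7 were higher without scaling between arrays and 1 of 7 with spike-in scaling. The other relatives of the family, given below, had medians of the opposite sign by role in both lines.

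Averaged over both lines, the siRNA response of PMAIP1 was 0.42 (SE 0.075, limma adjusted p = 0.0570), of BBC3 0.20 (adjusted p = 0.200) and of BCL2L1 -0.31 (adjusted p = 0.216). None of the 10 members passed, where 2.39% of all genes did, and these 3 were past an unadjusted p of 0.05, against 24.9%. PMAIP1 passed with normexp, with quantile scaling, with the intensity trend, and where probes had to be above background on all 8 arrays. More genes passed in these settings too: 1266, 640 and 1342 of 20629, and 1139 of 16592, against 494 of 20629 in the main fit. The response of PMAIP1 in MIA PaCa-2 minus that in Capan-1 was -0.68 (95% confidence interval -1.04 to -0.31, limma adjusted p = 0.218). No member passed for this difference between lines, where 0.00970% of all genes did, and PMAIP1 alone was past an unadjusted p of 0.05, against 13.1%. The same difference was 0.34 for BCL2L1 (95% confidence interval -0.25 to 0.94), and for BAX 0.11 (-0.22 to 0.44).

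Most members differed between the parental lines, as most genes did. In parental MIA PaCa-2 against parental Capan-1, 9 of 10 members passed the limma threshold, where 73.1% of all genes did. BAX, BAK1, BBC3, BCL2 and MCL1 were higher in MIA PaCa-2, 5 genes against a background of 40.1%, and BCL2L1, BID and PMAIP1 were lower, 3 genes against 31.7%. BCL2L11 passed in both directions, on different probes. Levels did not overlap for any of the 10 genes, against 86.4% of all genes.

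BCL2 and BCL2L1, both restrainers of the pore formers, stood in opposite order in the lines. On its 10-spot probe BCL2 stood at -4.05 and -4.31 in parental MIA PaCa-2 and at -7.41 and -7.04 in parental Capan-1, not above background, which makes it at least 2.92-fold higher in MIA PaCa-2 (limma adjusted p = 1.1e-05). This probe was tested only because it was above background in MIA PaCa-2, and it alone gives BCL2 its call. The brighter probe gave -2.58 and -2.53 against -4.99 and -5.16, above background in both lines, a log2 difference of 2.52 (limma adjusted p = 0.0641). It was 0.72 with normexp, and passed with this correction, without scaling (2.55), with spike-in scaling (2.30) and with the intensity trend. The SE of the main value, 1.00, pools all 4 groups and so includes the Capan-1 siRNA arrays at -1.83 and -5.28. The parental groups themselves had an SD of 0.034 (MIA PaCa-2) and 0.12 (Capan-1). BCL2L1 stood at -0.57 and -1.05 in MIA PaCa-2 and at 0.77 and 0.96 in Capan-1, a log2 difference of -1.67 (SE 0.17, limma adjusted p = 0.00025). MCL1 was higher in MIA PaCa-2, at 1.66 and 1.52 against 0.65 and 0.88 (0.82, limma adjusted p = 0.00081).

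Both pore formers were higher in MIA PaCa-2. BAX stood at 3.72 and 3.87 against 3.12 and 3.10, a log2 difference of 0.69 (limma adjusted p = 0.00096), with 0.48 on its fainter probe (limma adjusted p = 0.0253). BAK1 stood at 2.38 and 2.12 against 1.66 and 1.66 (0.59, limma adjusted p = 0.0046). BBC3 was also higher, at 1.94 and 2.21 against 1.56 and 1.52 (0.54, limma adjusted p = 0.0049). BAX, BAK1 and BBC3 fell short of the threshold with spike-in scaling, at 0.47, 0.38 and 0.32. BID was lower, at 4.67 and 4.74 against 5.32 and 5.21 (-0.56, limma adjusted p = 0.0014), and its other probe, 83 bases away, gave -0.60. PMAIP1 was lower by a smaller amount, at 0.51 and 0.65 against 0.95 and 0.92 (-0.35, limma adjusted p = 0.0242), and lost the call without scaling and without any 1 of 3 parental arrays (MIA PaCa-2 replicate 1, and either of Capan-1), at -0.28 to -0.37. BAD did not pass (-0.16, 95% confidence interval -0.41 to 0.077, limma adjusted p = 0.182).

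**Figure D3:**
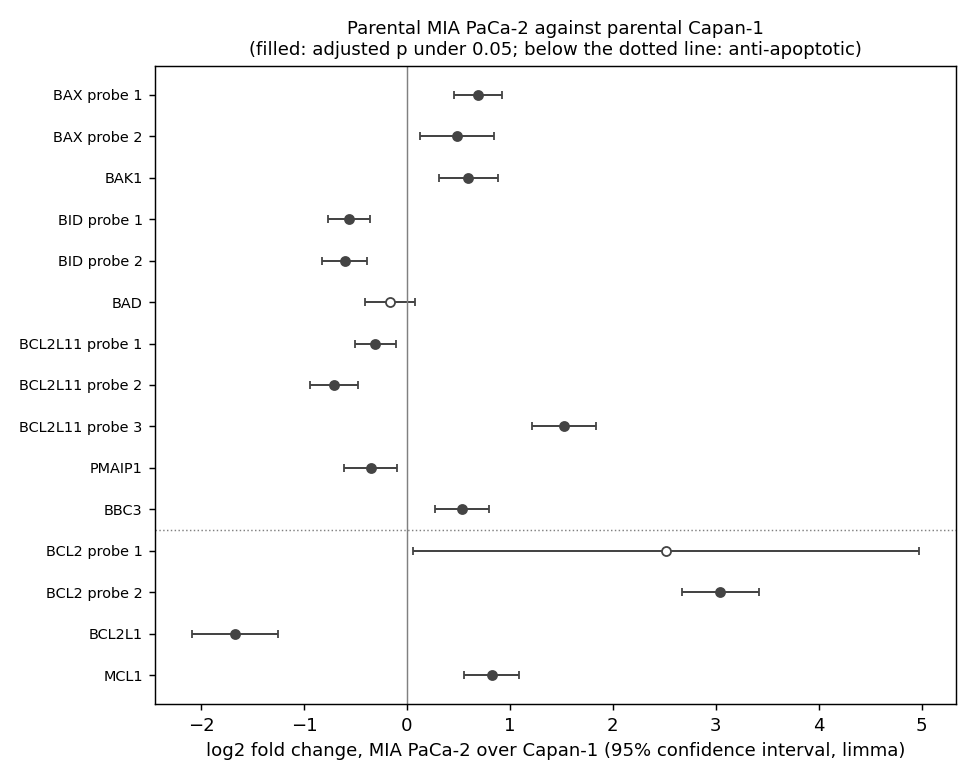
Log2 difference of each member probe, parental MIA PaCa-2 over parental Capan-1, with 95% confidence intervals from limma (2 arrays per line); filled points have an adjusted p under 0.05. BCL2 and MCL1 lie right of 0 and BCL2L1 lies left at -1.67, and the 3 BCL2L11 probes fall on both sides.

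The BCL2L11 probes, which read different parts of one gene, did not rank the lines alike. The brightest stood at -0.62 and -0.57 in parental MIA PaCa-2 and at -0.28 and -0.30 in parental Capan-1, a log2 difference of -0.31 (limma adjusted p = 0.0160) that did not pass with normexp (-0.18), without scaling (-0.27) or with spike-in scaling (-0.52), nor without MIA PaCa-2 parental replicate 1 or either parental Capan-1 array (-0.28 to -0.32). The middle probe, 47187 bases away, gave -1.43 and -1.51 against -0.73 and -0.79, a difference of -0.71 (limma adjusted p = 0.00083). Both were lower in MIA PaCa-2, with every array of one line outside the range of the other. The faintest probe, listed under the same transcript as the middle one, NM_207002, stood at -1.22 and -1.37 against -2.73 and -2.92, which is 1.53 higher in MIA PaCa-2 (limma adjusted p = 0.0001). BCL2L11 makes several spliced forms, and the mean of its probes gave 0.17 in place of -0.31. Which transcripts each probe reads was not tested.

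**Figure D4:**
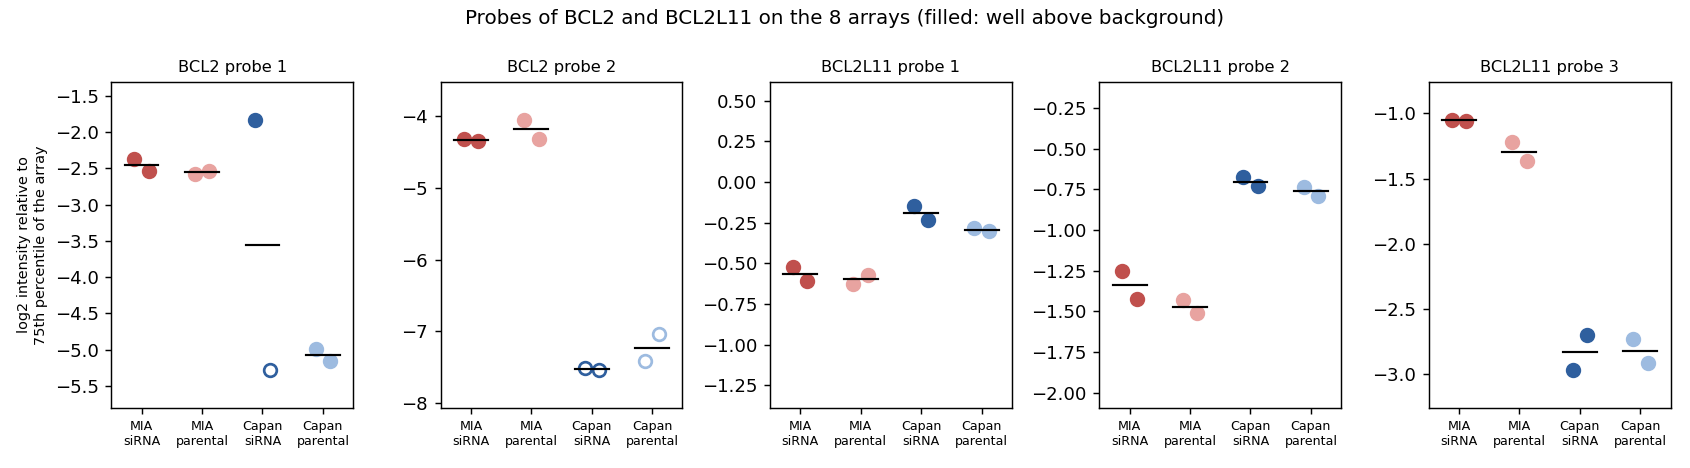
Level of each probe of BCL2 and BCL2L11 on the 8 arrays, as log2 intensity relative to the 75th percentile of the array, each panel with its own range; open points were not well above background and bars are the means of 2. BCL2 probe 2 was not above background on the 4 Capan-1 arrays, and BCL2L11 probe 3 stood at -1.05 to -1.37 in MIA PaCa-2, against -2.70 to -2.97 in Capan-1.

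Over all 4 groups, the cell line ordered the levels of most members and treatment came second. For BAX, BAK1 and BBC3 both MIA PaCa-2 groups were above both Capan-1 groups, with no overlap between the lines. For BID, BAD, BCL2L11 and PMAIP1 both Capan-1 groups were above both MIA PaCa-2 groups on the brightest probe. The faintest BCL2L11 probe had the reverse order of lines. PMAIP1 ran from 1.69 in Capan-1 siRNA through 0.93 in its parental cells to 0.66 and 0.58 in MIA PaCa-2, of which the last neighbours overlapped. BCL2L1 ran from 0.86 in parental Capan-1 through 0.38 after siRNA to -0.81 and -0.94 in MIA PaCa-2, and the last neighbours overlapped here too. MCL1 ran from 1.59 and 1.46 in MIA PaCa-2 to 0.77 and 0.53 in Capan-1, parental before siRNA in each line. On the brighter BCL2 probe every pair of neighbours overlapped, the MIA PaCa-2 groups on their own values and the other pairs across the wide range of the Capan-1 siRNA arrays. Across the 8 arrays the genes most like BAX were DOCK1, POGLUT3 and KDM4C, each with a Pearson r of 0.998, and those most like BCL2L1 were PLCD3, NAGLU and MAFF, with r of 0.999, 0.997 and 0.997, out of 20291 probes above background on all arrays; the arrays fall into 2 cell lines, so these values mostly restate the line difference.

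Other genes of the pathway, grouped by role, gave few calls after siRNA, where MIA PaCa-2 had 2.29% of all genes called and Capan-1 had 0.00528%. Of the other anti-apoptotic relatives BCL2L2, BCL2A1 and BCL2L10, 2 were tested and 0 called in either line. The other pro-apoptotic relatives BOK, BIK, BMF and HRK gave 0 of 4 called, with medians of -0.11 in both lines. The 9 genes for cytochrome c release and the apoptosome, among them CYCS, APAF1 and DIABLO, had medians of 0.13 in both lines, with 9 of 9 above 0 in Capan-1 and 6 of 9 in MIA PaCa-2, and 0 were called. Of all genes, 9520 of 18916 in Capan-1 and 10217 of 19187 in MIA PaCa-2 were above 0. The largest of the Capan-1 values, 0.21 for VDAC1, rested on 1 siRNA array. Counts against 0 depend on the scaling, as the Capan-1 median of all genes was -0.40 with spike-in scaling. Binding partners and turnover factors of the family gave 0 of 13, more distant BCL2-related genes 0 of 6 (MIA PaCa-2) and 0 of 7 (Capan-1), and transcription regulators, among them MYC and FOXO3, 0 of 13 and 0 of 12.

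Of 18 genes of stress response and growth arrest, MIA PaCa-2 had 1 called (2.29% of all genes) and Capan-1 had 0 (0.00528%). BTG2, an antiproliferative gene, stood at 0.70 and 0.76 after siRNA and at 1.49 and 1.29 in parental MIA PaCa-2 cells, so both siRNA arrays were lower (log2 fold change -0.66, SE 0.10, limma adjusted p = 0.0438). The call was lost with the line fitted alone (adjusted p = 0.143), with no or spike-in scaling (0.182 and 0.349), with no filter (0.0958) and without any 1 of the 8 arrays (0.0691 to 0.162). In Capan-1 it gave 0.079 (limma adjusted p = 0.781). DDB2, which encodes a DNA damage sensor, was called lower in the average over both lines (-0.36, limma adjusted p = 0.0491), at 2.56 and 2.61 against 3.07 and 3.09 in MIA PaCa-2 and at 2.26 and 2.38 against 2.52 and 2.57 in Capan-1, while its other probe gave -0.41 and did not pass. This call too was lost with no or spike-in scaling (adjusted p = 0.137 and 0.0890), with no filter (0.113) and without any 1 of the 8 arrays (0.0697 to 0.163). The list as a whole had a median of 0.076 in MIA PaCa-2, with 10 of 18 above 0, against 10217 of 19187 for all genes. In Capan-1 the median was 0.094, with 15 of 18 above 0, against 9520 of 18916. These counts are for the main scaling.

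**Figure D5:**
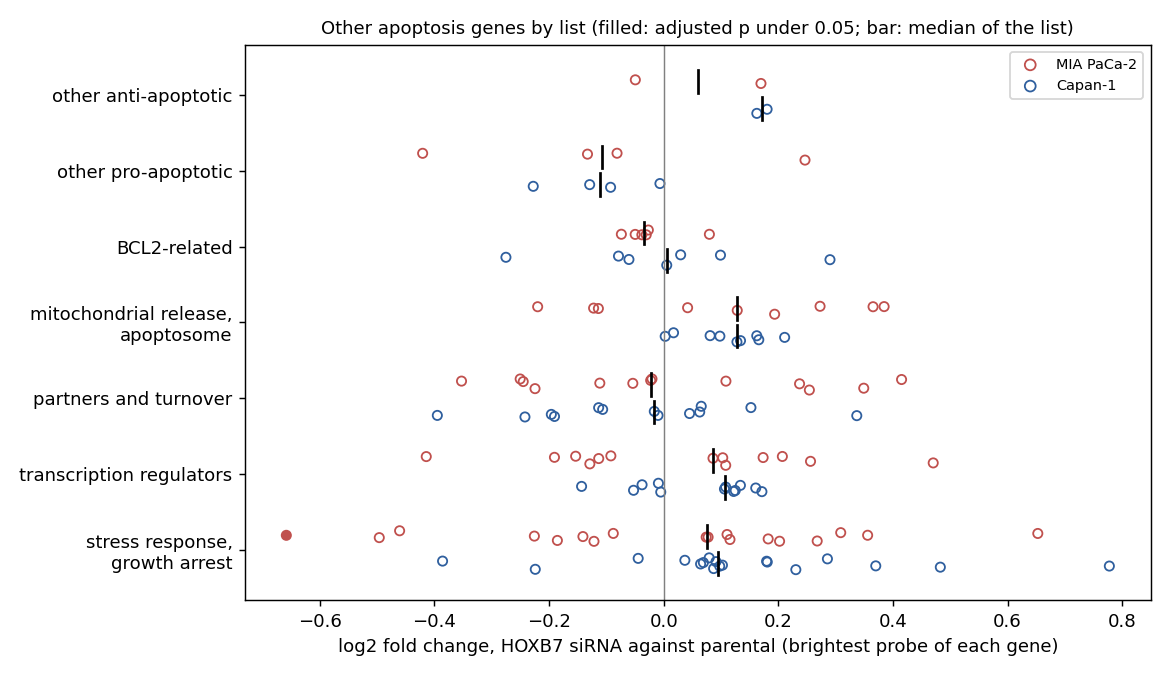
Log2 fold change, HOXB7 siRNA over parental, of the brightest probe of each further apoptosis gene (points) by list (vertical axis) in MIA PaCa-2 (red) and Capan-1 (blue), with the median of each list as a bar. The single filled point, past the limma threshold, is BTG2 in MIA PaCa-2 at -0.66.

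Between the parental lines, where 40.1% of all genes were called higher in MIA PaCa-2 and 31.7% lower, many of these genes also differed. BIK, a BH3-only gene, stood at -2.03 and -2.70 in MIA PaCa-2 and at 3.58 and 3.74 in Capan-1, a log2 difference of -6.02, and 3 of the 4 other pro-apoptotic relatives (BIK, BMF and HRK) were lower in MIA PaCa-2. BCL2A1, an anti-apoptotic relative, was not above background in MIA PaCa-2 on one probe and at least 8.74-fold lower there, with a log2 difference of -0.60 on its other probe. BCL2L2 was lower by -0.71. BCL2L14 was at least 6.28-fold lower in MIA PaCa-2, and BNIP3L, a receptor for removal of mitochondria, was 1.14 higher. Of the release and apoptosome genes 6 of 9 were higher and 1 lower in MIA PaCa-2, with AIFM1 at 1.95, ENDOG at 1.88 and CYCS at -1.37 to -1.66 over its probes. TP63, a transcription factor of epithelial cells, was at least 5.92-fold higher. Of the stress response and growth arrest genes 10 were higher and 6 lower, SESN1 by 2.50 and GDF15 by -4.76. All differences named in this paragraph passed the limma threshold. TP63 was not above background in Capan-1, nor was BCL2L14 in MIA PaCa-2. Both, and the BCL2A1 probe not above background in MIA PaCa-2, were tested only because they were above background in the other line.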

How the data were processed

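The authors scanned one-color arrays with Agilent Feature Extraction 9.5.3 and deposited the background-subtracted, detrended intensity of each spot with its flags and background calls, and a table of log2 values equal to the log2 of these intensities, with no scaling between arrays. Here, spots without an outlier flag were averaged per probe on the log2 scale and the 75th percentile of each array was subtracted. Group means of all 8 arrays were fitted with limma 3.58.1 (lmFit, eBayes) in R 4.3.3 on every probe well above background on both arrays of a compared group, and p-values (two-sided) were adjusted by Benjamini-Hochberg over all probes of a comparison. A gene was called when at least 1 probe had an adjusted p under 0.05. Lower bounds ("at least") were taken against the lowest signal well above background on each array. Tables and figures were made in Python 3.11.15. The interval rule follows the methods of the study, with its window in intensity set here. As run here it called 3 genes higher and 2 lower in MIA PaCa-2, and 10 higher and 0 lower in Capan-1. That is far fewer than the study listed in each line, so its counts do not stand for the lists of the study.

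All 10 members were named with every probe. Of the other lists, genes past the threshold after siRNA and up to 5 per list with the smallest adjusted p between parental lines could be named. A gene of these lists is not reported here. Members and lists were chosen with earlier results of these data known. Steps were tested on simulated data. The number of arrays limits the precision.

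Alternatives were normexp (offset of 50), quantile, no and spike-in scaling, flagged spots kept, the deposited log2 table, no filter, a filter on all 8 arrays, each line alone, the replicate block, an intensity trend, the mean over probes and each array left out. Replicate numbers were not taken as pairs in the main fits, since the labels tie them to no shared culture. The interval rule set each siRNA array against the parental array of the same number, and the replicate block used these numbers too.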

Additional observations from a re-analysis of the deposited data

How the results depend on the processing

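Between treatments the number of members called in MIA PaCa-2 was 0 under every alternative. In Capan-1 it was 1 (PMAIP1) with the normexp background correction and with an intensity trend. Of all 18938 genes, 77 and 50 were called in these settings, against 1 in the main fit. For the mean of both lines it was 1 (PMAIP1) with normexp, quantile scaling, the intensity trend and the filter on all 8 arrays. Of all 20629 genes, 1266 were called with normexp, 640 with quantile scaling and 1342 with the trend, against 494 in the main fit. The filter on all 8 arrays called 1139 of 16592 genes. For the difference between lines no member was called in any fit of all 8 arrays. Between parental lines it was 6 with spike-in scaling, where 12139 of 20176 genes were called, against 14757 in the main fit. It was 8 without scaling (PMAIP1 lost, 12729 genes called) and 8 as the mean over probes (BCL2L11 lost, 14070 of 20178 genes). With the filter on all 8 arrays it was 8 of 9 tested (BCL2 lost, 12042 of 16592 genes). The pro-apoptotic minus the anti-apoptotic median was -0.068 to 0.28 in MIA PaCa-2 with an array left out (below 0 without parental replicate 1) and 0.22 to 0.49 in Capan-1 (lowest without parental replicate 2). The median of all genes moved to -0.20 (MIA PaCa-2) and -0.16 (Capan-1) without scaling and to -0.11 and -0.40 with spike-in scaling, and most changes of sign came with these settings. In MIA PaCa-2 without scaling the values were BAX -0.052, BID -0.17, BCL2L11 -0.18, PMAIP1 -0.14, BBC3 -0.080 and BCL2 -0.12; with spike-in scaling BID -0.084, BCL2L11 -0.098, PMAIP1 -0.056 and BCL2 -0.032; BID was -0.0087 with normexp and BCL2 -0.026 as the mean of its probes. In Capan-1 without scaling they were BAX -0.10, BAK1 -0.017, BID -0.025 and BCL2L11 -0.056; with spike-in scaling BAX -0.34, BAK1 -0.26, BID -0.26, BCL2L11 -0.30 and BBC3 -0.13; BAX was -0.077 as the mean of its probes. The BCL2L11 difference between parental lines was 0.17 as the mean of its probes. With an array left out the range held both signs for BAK1 (-0.19 to 0.061), BCL2L11 (-0.0094 to 0.078), PMAIP1 (-0.016 to 0.17) and BCL2L1 (-0.37 to 0.10) in MIA PaCa-2 and for BAD (-0.13 to 0.063) and BCL2 (-0.21 to 3.24) in Capan-1. The cause of these changes was not tested. Deviations of same-numbered replicates correlated with an r of 0.023 and 0.038, which cannot show whether these samples shared a culture or handling. With the replicate block 0 members were called in each siRNA comparison and 9 between parental lines, where 14637 of 20176 genes were called. The genes called in MIA PaCa-2 went from 441 to 0 with this block. It also ended the calls of BTG2 and DDB2 (limma adjusted p = 0.184 and 0.179). Signal over background limits BCL2 most, whose fainter probe has only a bound in Capan-1.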
